A study of Mus musculus with 18 samples.

Results

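The contacts of the mouse Ifng gene in T helper 1 (Th1) cells were compared with those in T helper 2 (Th2) cells. The comparison used the arrays titled as Ifng 4C in Th1 cells (2 arrays) and in Th2 cells (2 arrays), 4 of the 18 arrays of the series. 4C captures the DNA segments that a gene, called the bait, touches inside the nucleus. HindIII digestion and ligation of fixed chromatin joined such segments, digestion with Csp6I and a further ligation made small circles of them, and inverse PCR copied those that hold the bait. That DNA was labelled with Cy5 and hybridised against Cy3-labelled digested genomic DNA, so each of 384942 probes per array gives a log2 ratio of captured over genomic DNA.

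The Th1 and Th2 cells were primary mouse CD4 T cells labelled as treated with Th1 or Th2, and the labels used here give no strain, age or culture time. The other 6 Ifng arrays, 2 each of naive CD4 T cells, Stat4 KO Th1 cells and 3T3-L1 preadipocytes, a mouse cell line, entered the fits because they share the estimate of spread. The design text describes the arrays as single biological replicates except for 1 pooled array that it does not identify. The sources used here do not tie the numbers to cultures, so p-values measure the spread between these arrays. The protocol names other baits and adherent cells, and the titles were followed.

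Ifng encodes interferon gamma, the defining cytokine of Th1 cells, which activates macrophages against intracellular pathogens. Th2 cells make interleukin 4 instead and keep Ifng silent, and STAT4 and STAT6 are the signal-activated transcription factors that act in the Th1 and the Th2 programme. In a 4C profile the signal is highest beside the bait, falls with distance along the same chromosome, and rises again where distant segments share nuclear space with the bait.

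Among the 500-kb bins of chromosome 10, the one with the highest signal lay within 1 Mb of the Ifng bait in all 10 Ifng arrays. The bait was itself placed at the chromosome 10 bin with the highest mean over these arrays, so this does not check its position. Th1 replicate 2 was examined for its correlation with an Il4 array, Th2 replicate 2. Over probes off chromosomes 10 and 11 this Pearson correlation was 0.406, the highest of 80 pairs of an Ifng and an Il4 array. With its own replicate it was 0.071. Other Ifng arrays also correlated more with an Il4 array than with their own replicate. Naive replicate 2 had 0.348 with Il4 naive replicate 2 and 0.178 with naive replicate 1. Th1 replicate 1 had 0.141 with Il4 Th2 replicate 1. The replicates of Ifng Th2 correlated at 0.270 over the same probes. Over bins off chromosome 10, Th1 replicate 1 correlated at 0.00 and 0.08 with Th2, 0.11 and 0.06 with naive and 0.07 and 0.17 with Stat4 KO Th1 arrays. For Th1 replicate 2 these values were 0.35 and 0.33, 0.35 and 0.38, and 0.30 and 0.26. The low correlation between the Th1 replicates therefore does not single out replicate 2. The Il4 bait was placed at the highest chromosome 11 bin of the Il4 arrays. Over 11 bins around it Th1 replicate 2 had a mean log2 ratio of 0.05, within the 0.03 to 0.16 of the Ifng arrays. The Il4 arrays had at least 1.06 there, which the choice of that bin favours. On chromosome 10 beyond 1 Mb Th1 replicate 2 correlated with Th1 replicate 1 at 0.914 over 249 bins. Several counts of calls and distance values are therefore also given without it. It also differs from Th1 replicate 1 in how the serial number of its array begins, and it shares that beginning, named a serial series below, with both Th2 arrays.

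Values were centred on each array's median off chromosome 10 and averaged in 500-kb bins. The Th1 arrays were weaker overall. The standard deviation over all probes was 0.402 and 0.426 in Th1 and 0.549 in both Th2 arrays. The bins off chromosome 10 had a standard deviation of 0.048 and 0.055 in Th1 against 0.087 and 0.071 in Th2. The part of this difference in the comparisons of log2 ratios was not tested directly. Most of those beyond 1 Mb of the bait are therefore set beside a comparison of ranks, which drops an array's overall strength.

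Close to the bait the Ifng signal was lower in both Th1 arrays than in both Th2 arrays. Within 1 Mb the mean log2 ratio was 2.08 and 2.49 in Th1 and 3.27 and 3.25 in Th2. The Th1 mean of 2.29 ± 0.29 (SD, n = 2) thus lay 0.97 below the Th2 mean of 3.26 ± 0.02 (SD, n = 2). With 2 arrays against 2 the smallest two-sided p that an exact permutation test allows is 0.333, and this difference reached it. Over the same probes the naive arrays read 3.24 and 2.75, the Stat4 KO Th1 arrays 2.15 and 2.18 and the 3T3-L1 arrays 2.08 and 2.17. No scaled or rank comparison was made within 1 Mb. Scaling by the spread off chromosome 10 was applied only beyond 1 Mb. Its factors were 1.60 and 1.53 for the Th1 arrays and 0.84 and 1.05 for the Th2 arrays. The part of the arrays' general strength in the gap within 1 Mb was not tested. The bait bin itself, from 117500001 to 118000000 (mm8, inferred from the probe positions), read 2.27 and 3.22 in Th1 and 3.86 and 3.60 in Th2. Of 50 windows of 50 kb around the bait, both Th1 arrays were below both Th2 arrays in 43 and above them in 2. These 2 windows lay toward the centromere, from 117300001 to 117350000 and from 117400001 to 117450000, and had 9 and 5 probes. In the first the Th1 arrays read 2.21 and 3.15 and the Th2 arrays 2.09 and 2.04. In the second they read 2.89 and 3.16 against 2.06 and 2.27. The 500-kb bin that holds both windows, from 117000001 to 117500000, overlapped between the groups, at 2.30 and 2.82 in Th1 and 2.79 and 2.92 in Th2.

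**Figure D1:**
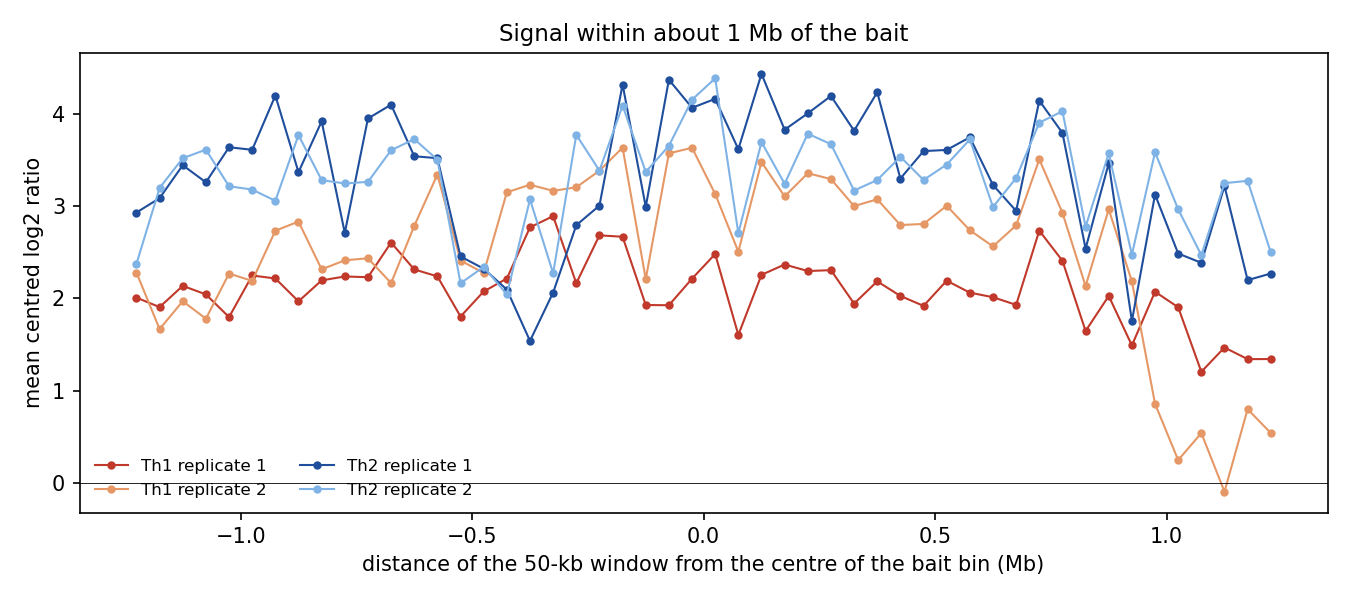
Mean centred log2 ratio (y axis) in 50-kb windows against distance from the centre of the Ifng bait bin in Mb (x axis), with 1 line for each of the 2 Th1 and 2 Th2 arrays. Both Th1 arrays lie below both Th2 arrays in 43 of 50 windows and above them in 2, which lie between 0 and 0.5 Mb on the side of the centromere.

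Beyond 1 Mb the gap between the cell types was widest at 1 to 2 Mb and narrowed with distance. At 1 to 2 Mb the mean log2 ratio was 1.22 and 0.84 in the Th1 arrays and 2.47 and 2.74 in the Th2 arrays, a difference of -1.58. From 2 to 5 Mb it was 0.69 and 0.42 against 1.46 and 1.76, and from 5 to 10 Mb 0.40 and 0.26 against 0.85 and 0.98. These strata did not overlap between the groups. At 40 to 80 Mb the difference had shrunk to -0.13, with Th1 at 0.25 and 0.17 and Th2 at 0.32 and 0.35. Beyond 80 Mb the groups overlapped, at 0.16 and 0.10 in Th1 and 0.12 and 0.16 in Th2. With probe medians in place of means the groups overlapped from 10 Mb outward. At 10 to 20 Mb these medians were 0.11 and 0.05 in Th1 and 0.09 and 0.18 in Th2. For the means, the exact permutation p was 0.333 for each of the 6 nearer strata and 0.667 for the farthest. The difference without Th1 replicate 2 was -1.39 at 1 to 2 Mb, -0.92 at 2 to 5 Mb, -0.51 at 5 to 10 Mb, -0.09 at 40 to 80 Mb and 0.01 beyond 80 Mb.

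Scaling each array by its own spread off chromosome 10 kept part of this pattern. The difference was then -0.86 at 1 to 2 Mb, -0.67 at 2 to 5 Mb and -0.35 at 5 to 10 Mb. At 20 to 40 Mb it was 0.00, and beyond 80 Mb it was 0.06, now higher in Th1.

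The order of the probes alone gave the same ranking of the groups from 1 to 20 Mb. Among probes 1 to 2 Mb away, 60.2% and 32.5% were in the highest 5% of their array in Th1, against 67.5% and 79.9% in Th2. At 5 to 10 Mb the shares were 22.0% and 13.3% against 27.1% and 34.5%. From 20 Mb outward they overlapped, with 25% and 16.2% against 19.5% and 25.1% at 20 to 40 Mb. At 1 to 2 Mb both the number of high probes and their height differed. The median log2 ratio of those high probes at 1 to 2 Mb was 1.99 and 2.67 in Th1 and 3.75 and 3.66 in Th2. The exact permutation p was 0.333 for the shares and for these medians at that distance. The height is an unscaled log2 ratio, and it was lower in both Th1 arrays at every distance. Beyond 80 Mb it was 1.33 and 1.075 in Th1 and 1.46 and 1.665 in Th2.

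**Figure D2:**
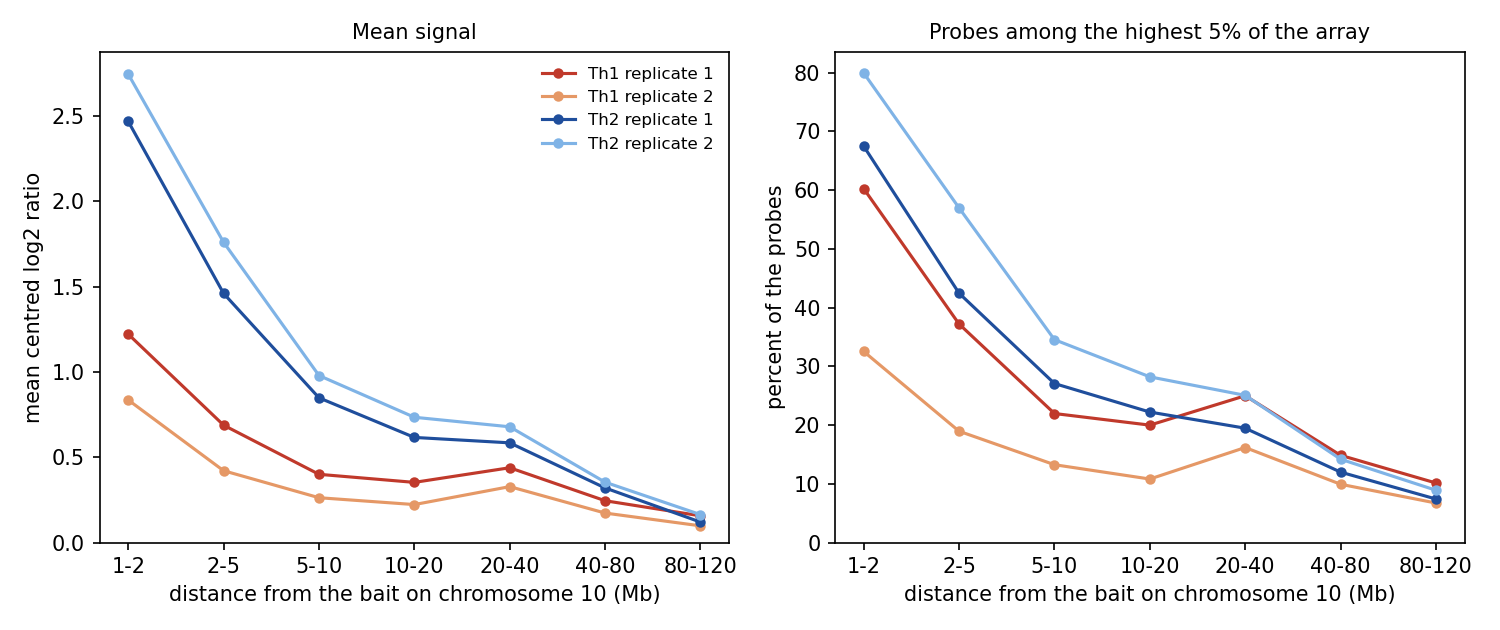
Left, mean centred log2 ratio, and right, percent of probes among the highest 5% of their array, both against distance from the Ifng bait on chromosome 10 in Mb, with 1 line per array. The Th1 arrays lie below the Th2 arrays in both panels up to 20 Mb, and the groups overlap beyond 80 Mb on the left and beyond 20 Mb on the right.

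The Th1 profiles along chromosome 10 were also less smooth. The correlation between neighbouring 500-kb bins was 0.583 and 0.428 in Th1 and 0.816 and 0.823 in Th2. In naive cells it was 0.759 and 0.755, in Stat4 KO Th1 cells 0.712 and 0.776, and in 3T3-L1 cells 0.760 and 0.737, so both Th1 arrays were below the other 8 Ifng arrays. The mean step between neighbouring bins, in units of the array's own standard deviation, was 0.627 and 0.671 in Th1 against 0.407 and 0.392 in Th2. These 2 measures do not change when an array's values are multiplied by a constant. They can change with the noise of an array and with how steeply its signal falls with distance, and the part of either was not tested. A log2 ratio above 0.5 was found in 53 and 29 of 249 bins in Th1 and in 88 and 102 in Th2.

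Over the genome 133 of 5021 bins differed between Th1 and Th2 (2.65%, limma, Benjamini-Hochberg adjusted p under 0.05), 12 higher (0.239%) and 121 lower (2.41%) in Th1. Chromosome 10 held 106 of them, which is 42.6% of its 249 bins. There 11 bins were higher in Th1 (4.42%) and 95 were lower (38.2%). The Th1 and Th2 arrays did not overlap in 69.9% of the chromosome 10 bins. Without Th1 replicate 2 the fit called 76 bins, 10 higher and 66 lower. Over the chromosome 10 bins the median difference was -0.139 in the main fit. Within the serial series that holds Th1 replicate 2 and both Th2 arrays it was -0.176. With the series as a block it was also -0.176. Only the Th1 pair spans 2 series that other groups share, so both values compare Th1 replicate 2 alone with the Th2 arrays.

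When each array's chromosome 10 bins were replaced by their percentile, the split became even. Of 249 bins 70 changed rank (28.1%, limma, adjusted p under 0.05), 34 up in Th1 (13.7%) and 36 down (14.5%). The percentiles of the arrays did not overlap between the groups in 67.1% of these bins. Of the 11 bins higher on the log2 scale 9 were among the 34 that ranked higher, 81.8% of the first list and 26.5% of the second. Of the 95 lower bins 36 were among those that ranked lower, 37.9% of the first list and 100% of the second. Without Th1 replicate 2 there were 29 rank calls, 12 up and 17 down, and without either Th2 array there were 26.

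The rank calls were arranged by distance, counted here only with all arrays in the fit. In the 69 bins that lie 80 to 120 Mb toward the centromere, 17 ranked higher in Th1 and 1 lower, with a median shift of 14.9 percentile points. Between 40 and 80 Mb there were 9 up and 8 down. In the 18 bins within 10 Mb on that side none ranked higher and 9 ranked lower, with a median shift of -26.8 points, and on the telomere side, within 13 Mb, 1 ranked higher and 8 lower. Ranks within a chromosome have a fixed sum, so falls in some bins are matched by rises in others.

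A fitted distance trend was removed from each array as a further scale. This left 49 called bins (19.7%), 38 higher in Th1 (15.3%) and 11 lower (4.42%). All 11 bins that were higher on the log2 scale were among the 38. All 11 that were lower were among the 95, and 12 of the 95 turned to higher calls. Without Th1 replicate 2 it left 28 called bins, 22 higher and 6 lower.

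**Figure D3:**
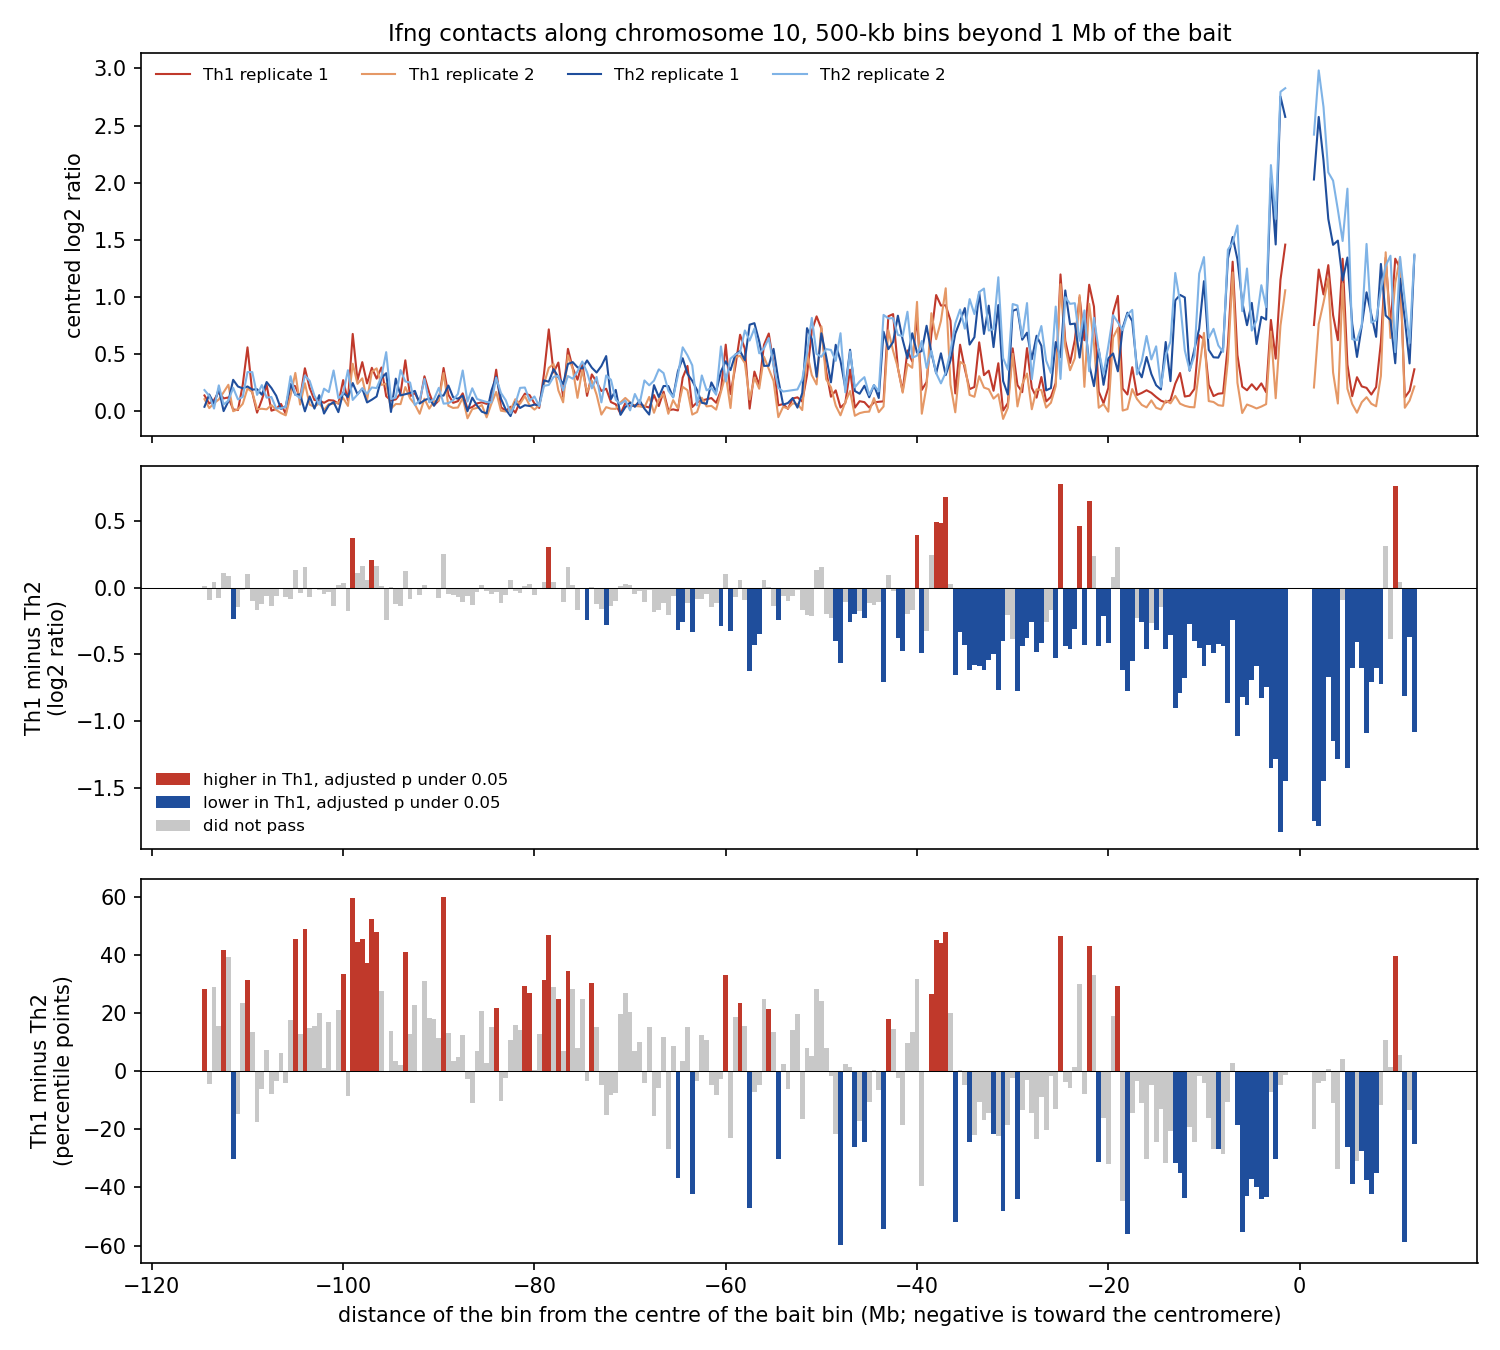
Top, centred log2 ratio of 500-kb bins on chromosome 10 in the 4 arrays; middle and bottom, Th1 minus Th2 as log2 ratio and as percentile points, all against distance from the Ifng bait in Mb. Red and blue bars are bins higher and lower in Th1 at a limma adjusted p under 0.05: 11 and 95 on the log2 scale, 34 and 36 on the rank scale.

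The bins higher in Th1 formed 9 regions, and the 8 with the largest change are described here. The largest was from 92500001 to 93000000 in band 10qC2, 25 Mb from the bait. It read 1.20 and 1.11 in Th1 and 0.47 and 0.28 in Th2, a difference of 0.78 (SE 0.10, limma adjusted p = 4.0e-05). The Th1 arrays lay far above the Th2 arrays, and this bin moved from percentile 62.4 and 38.8 of chromosome 10 in Th2 to 96.6 and 97.4 in Th1. Its rank call (limma adjusted p = 0.019) was lost without Th1 replicate 2 (0.086) and without Th1 replicate 1 (0.055), while its log2 call held without either (0.00037 and 0.00090).

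The second lay on the telomere side, from 127500001 to 128000000 in band 10qD3, 10.0 Mb from the bait. Its values were 1.33 and 1.12 in Th1 and 0.42 and 0.51 in Th2, a difference of 0.76 (SE 0.06, limma adjusted p = 2.5e-07). In both Th1 arrays this bin was among the highest 2% of chromosome 10, at percentile 99.0 and 98.2, against 56.8 and 60.8 in Th2. It stayed called on both scales without Th1 replicate 2 (limma adjusted p = 1.8e-07 and 0.012). Farther toward the telomere, the bins from 128500001 to 130000000 went the other way, with 0.22 and 0.11 in Th1 and 0.86 and 0.98 in Th2, a difference of -0.75. The gene-dense band 10qD3 holds Stat6 and Stat2, transcription factors of interleukin 4 and interferon signalling, and Il23a, which encodes a subunit of interleukin 23. Genes were placed through bands only, so which of these bins holds them is not given here.

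Band 10qC1 held 2 more of these regions. A run of 3 bins from 79500001 to 81000000 read on average 0.95 and 0.83 in Th1 and 0.38 and 0.30 in Th2, and all 3 were called on both scales. The bin from 77500001 to 78000000 read 0.82 and 0.95 against 0.51 and 0.48. That bin passed on the log2 scale (limma adjusted p = 0.036) but not in rank (0.081) or without Th1 replicate 2 (0.25).

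Between 22 and 25 Mb from the bait, 2 further bins stood out. From 95500001 to 96000000 in 10qC3 the values were 1.11 and 0.94 in Th1 and 0.41 and 0.35 in Th2, and its rank call (limma adjusted p = 0.032) was lost without Th1 replicate 2 (0.13) and without Th1 replicate 1 (0.10). From 94500001 to 95000000 in 10qC2 they were 1.00 and 1.01 against 0.47 and 0.61, and this bin did not pass in rank (limma adjusted p = 0.15) or without Th1 replicate 2 (0.065).

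The 2 remaining regions were far from the bait, at 99.0 and 78.5 Mb. The bin from 18500001 to 19000000 in 10qA3 read 0.67 and 0.41 in Th1 and 0.24 and 0.10 in Th2. The bin from 39000001 to 39500000 in 10qB1 read 0.71 and 0.38 against 0.26 and 0.23. Neither was called on the log2 scale without Th1 replicate 1 (limma adjusted p = 0.16 and 0.50), and both were called in rank without it (0.022 and 0.0079).

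Over these 8 regions the Th1 arrays ran from 0.38 to 1.33 and the Th2 arrays from 0.10 to 0.61. Side by side with them, the naive arrays ran from 0.90 to 2.00, the Stat4 KO Th1 arrays from 0.38 to 1.35 and the 3T3-L1 arrays from -0.00 to 0.25. In 10qA3 the naive arrays reached 1.85 and 2.00, well over the Th1 values of 0.67 and 0.41. Comparisons of these groups with Th2 share the Th2 arrays and were not made here.

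**Figure D4:**
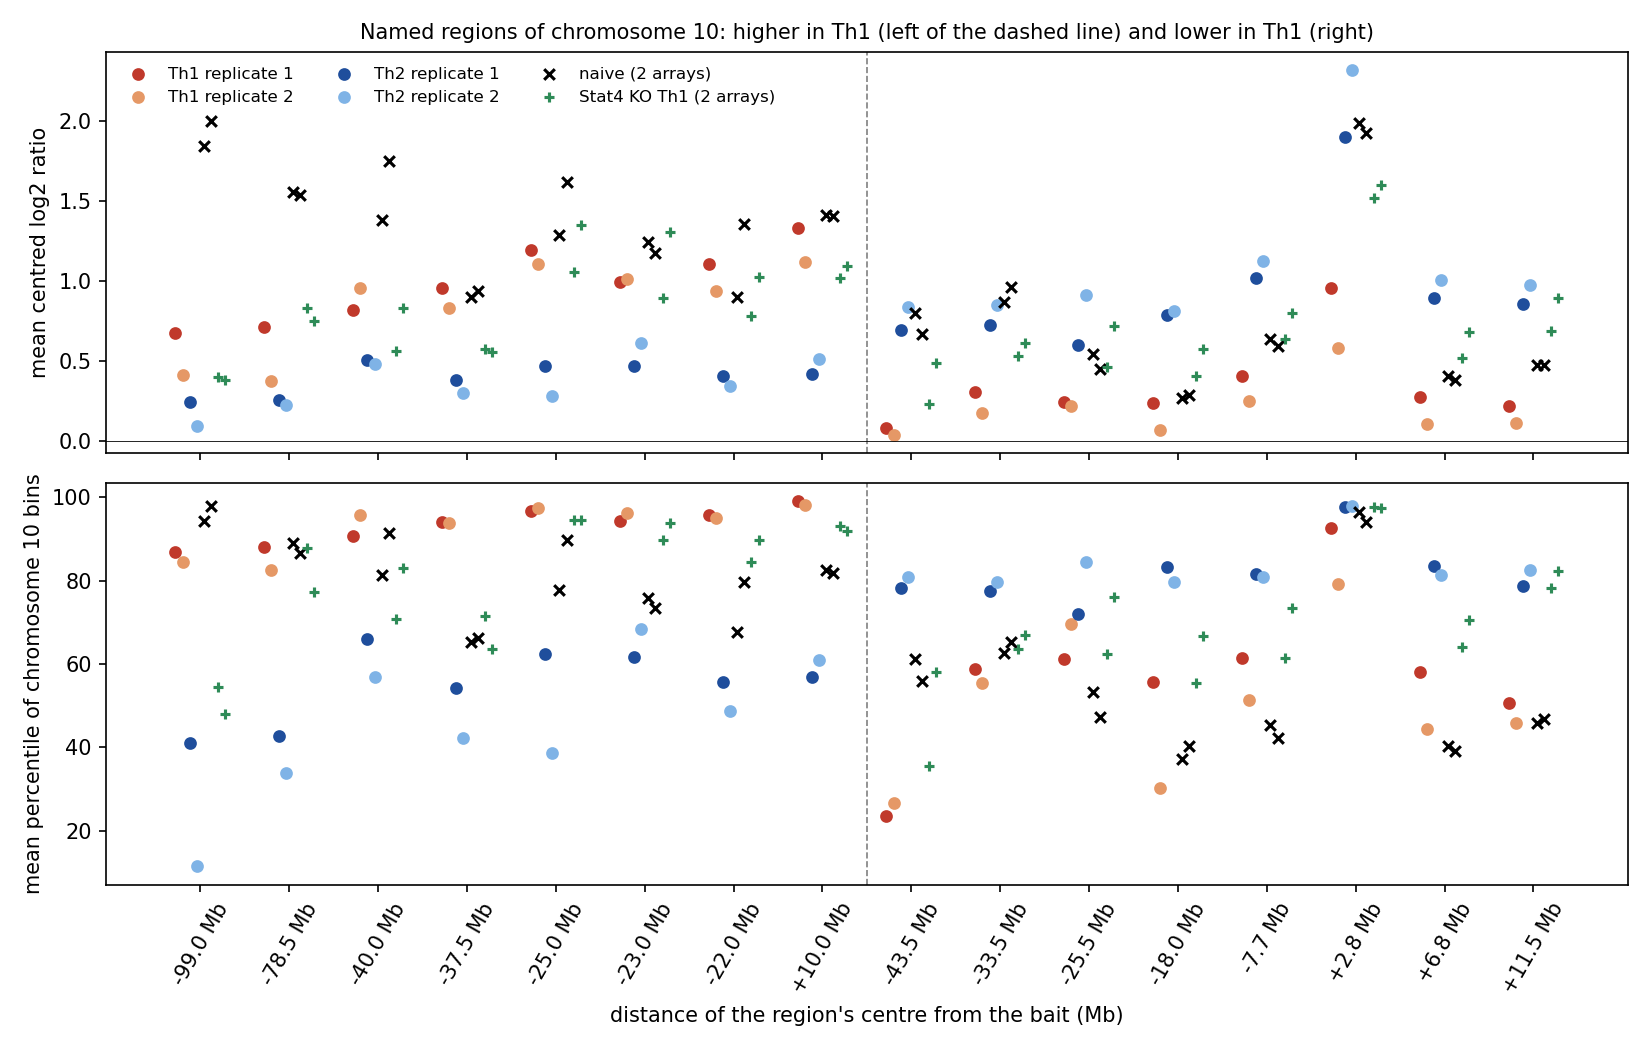
Mean centred log2 ratio (top) and mean percentile among chromosome 10 bins (bottom) of the 16 named regions in the Th1, Th2, naive and Stat4 KO Th1 arrays, with each region's distance from the Ifng bait in Mb on the x axis. In the 8 regions left of the dashed line both Th1 arrays lie above both Th2 arrays, and in the 8 on the right they lie below them in log2 ratio.

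The bins lower in Th1 formed 28 regions, and the 8 with the largest change are described here. The block from 119000001 to 122000000 in 10qD2, 6 bins that follow the excluded bait region, averaged 0.96 and 0.58 in Th1 and 1.90 and 2.32 in Th2. Its difference of -1.34 was the largest of all named regions, yet none of its 6 bins was called in rank. It was high in every array, and its percentile was 92.6 and 79.1 in Th1 and 97.5 and 97.9 in Th2.

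On the other side, 26 adjoining bins from 103500001 to 116500000 averaged 0.41 and 0.25 in Th1 and 1.02 and 1.12 in Th2. Of these 26 bins 12 also ranked lower. From 122500001 to 126500000 the average of 8 bins was 0.27 and 0.11 against 0.89 and 1.01, and 6 ranked lower. All 3 of these blocks turned sign when the distance trend was removed, to mean differences of 0.07, 0.15 and 0.13.

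Lower regions farther out did not turn sign with the trend removed. The bin from 74000001 to 74500000 in 10qB5.3, 43.5 Mb away, was near 0 in Th1, at 0.08 and 0.04, and clearly raised in Th2, at 0.69 and 0.84. Its difference was -0.71 (SE 0.07, limma adjusted p = 3.5e-06), -54.4 percentile points in rank (0.0029) and -0.45 with the trend removed (0.0024). Also in 10qB5.3, the bin from 69500001 to 70000000 had the largest fall in rank of the named regions, from percentile 58.0 and 72.5 in Th2 to 8.2 and 2.6 in Th1. Without Th1 replicate 2 both were still called on the log2 scale and in rank.

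Band 10qC1, next to it, contained segments of both directions. While the bins from 79500001 to 81000000 were higher in Th1, the 11 bins from 81500001 to 87000000 averaged 0.31 and 0.18 in Th1 and 0.72 and 0.85 in Th2, and 4 of them ranked lower. The regions from 99000001 to 100500000 in 10qD1 and from 92000001 to 92500000 in 10qC2 were lower by 0.65 and 0.53 in Th1. The latter adjoins the bin with the largest rise and was not called in rank (limma adjusted p = 0.37). Over the 8 named lower regions the naive arrays ran from 0.27 to 1.99, the Stat4 KO Th1 arrays from 0.23 to 1.60 and the 3T3-L1 arrays from 0.13 to 0.83.

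Rank brought out low-signal segments near the centromere that the log2 scale mostly did not call. A run of 6 adjoining bins from 18500001 to 21500000 in 10qA3 stood at percentile 70.5 and 73.7 in Th1 and at 25.8 and 22.8 in Th2. Their mean log2 ratio was 0.38 and 0.29 against 0.15 and 0.17, and 2 of the 6 were called on that scale. This run held its rank call without Th1 replicate 1 and without Th1 replicate 2 (limma adjusted p = 0.0050 and 0.011 for its best bin). The band carries Ifngr1, the interferon gamma receptor chain that binds the cytokine, Myb, a transcription factor of early T cells, and Tnfaip3, an inhibitor of NF-kappaB signalling.

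The bin from 28000001 to 28500000 in 10qA4 had the largest rise in rank of the named regions, from percentile 23.9 and 5.8 in Th2 to 71.7 and 78.1 in Th1. Its log2 ratios were 0.38 and 0.33 against 0.13 and 0.06 and did not pass (limma adjusted p = 0.052). The other named rises, from 13500001, 12500001, 5000001 and 24000001 for 500 kb each, had log2 differences of 0.16, 0.13, 0.11 and 0.12, none of which passed. Of the 8 named regions that ranked higher, 3 were still called in rank without Th1 replicate 2, those from 18500001, 24000001 and 28000001, and 5 without Th1 replicate 1. In the 8 named regions that ranked higher in Th1 the naive arrays ran from 0.66 to 1.73.

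Among the other named falls in rank, the bin from 128500001 to 129000000 in 10qD3 went from percentile 84.5 and 87.3 in Th2 to 33.1 and 21.1 in Th1. The bin from 86500001 to 87000000 in 10qC1 was at percentile 2.6 and 0.2 in Th1, at the bottom of the chromosome, and at 43.6 and 55.6 in Th2. The bin from 60000001 to 60500000 in 10qB4 was high in naive cells, at 1.49 and 1.53, and in Th2, at 0.76 and 0.62, and near 0 in Th1, at 0.02 and 0.10. Of the 8 named regions that ranked lower, 6 were still called in rank without Th1 replicate 2 and all 8 without Th1 replicate 1. Those lost began at 88000001 and 99500001 (limma adjusted p = 0.084 and 0.086).

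By whole cytogenetic bands, 6 of 401 were lower in Th1 (1.5%, limma, adjusted p under 0.05) and 0 were higher, against 97 in either direction at an unadjusted p under 0.05. All 6 lie on chromosome 10, where 35.3% of the 17 bands were called. Ifng's own band 10qD2, without the bait region, read 0.65 and 0.38 in Th1 and 1.45 and 1.69 in Th2, a difference of -1.06 (SE 0.10). It also holds Il22, a cytokine gene next to Ifng, Lyz2, a lysozyme gene of myeloid cells, Mdm2, the p53 ubiquitin ligase, and Hmga2, a chromatin protein. Band 10qD3 was lower by 0.43 and gene-rich 10qC1 by 0.29.

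Band 10qC1 holds Itgb2, an integrin chain of leukocytes, Icosl, the ICOS ligand, Aire, the regulator of thymic self-antigens, Gadd45b, a stress-induced gene that promotes Th1 responses, Tcf3, an early lymphoid transcription factor, Stk11, the kinase LKB1, and Igf1, a growth factor. The others were 10qD1, 10qB5.3 and 10qB4, which has Prf1, the gene for perforin. Without Th1 replicate 2 only 10qD2 and 10qB5.3 remained called, and after scaling by the spread off chromosome 10 none did.

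Of 30 landmark genes on chromosome 10, 25 could be placed at least 1 Mb inside a band, in 8 bands. Of the 25 genes 19 lay in the 4 of those bands that were lower (76.0%), which hold 62.3% of the protein-coding genes of chromosome 10. Ifngr1, Myb and Tnfaip3 were in 10qA3, which read 0.29 and 0.21 in Th1 and 0.15 and 0.20 in Th2 and did not pass (limma adjusted p = 0.21). Fyn, a T cell receptor kinase, Prdm1, which encodes Blimp-1, and Nr2c1, a nuclear receptor, were also in bands that did not pass.

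**Figure D5:**
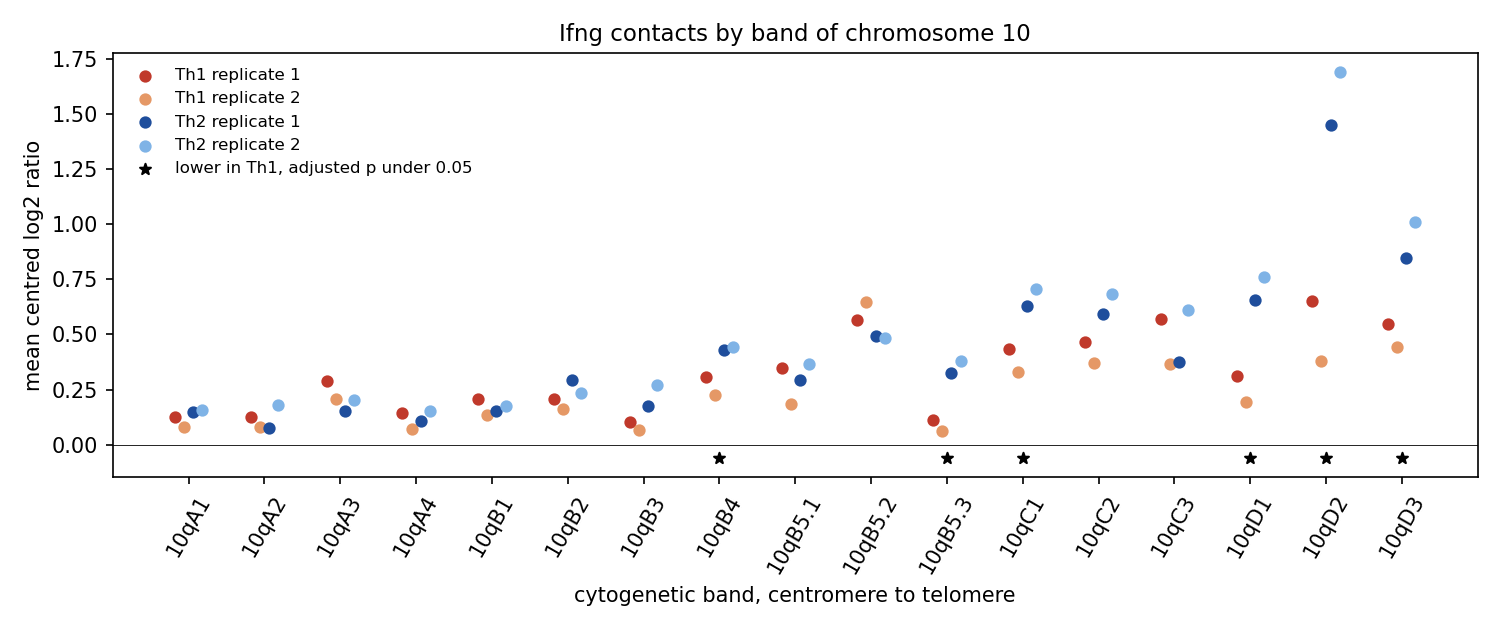
Mean centred log2 ratio of each of the 17 bands of chromosome 10 in the 4 arrays, from centromere to telomere; stars mark the 6 bands lower in Th1 at a limma adjusted p under 0.05. The widest gap is in 10qD2, which holds Ifng, at 0.65 and 0.38 in Th1 against 1.45 and 1.69 in Th2.

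Away from chromosome 10 the contrast was small on the log2 scale. Of 4772 bins 27 were called (0.566%), 1 higher (0.021%) and 26 lower (0.545%) in Th1, and 0 by limma when these bins were tested alone, where their unadjusted p was under 0.05 in 700 of them. The higher bin, on chromosome 6 from 129000001 to 129500000 in 6qF3, read 0.22 and 0.18 in Th1 and -0.02 and 0.00 in Th2 (limma adjusted p = 0.025). The 5 largest falls lay on chromosomes 12, 5, 4, 7 and 1, with differences from -0.27 to -0.23. Among them the bin on chromosome 5 from 117500001 to 118000000 was the most even within groups, at 0.00 and 0.03 in Th1 and 0.25 and 0.25 in Th2. Without Th1 replicate 2 none of these 6 bins was called. With the median in place of the mean per bin, 55 bins off chromosome 10 were called, 21 higher and 34 lower, and 15 on it.

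As percentiles off chromosome 10, 0 of 4772 bins passed (0.0%, limma), while 779 had an unadjusted p under 0.05. In simulated data with 200 bins shifted by 40 percentile points this fit recovered 0% of them. The absence of calls therefore does not show that the ranks were alike. The smallest adjusted p was 0.11, for 6 bins chosen as the 3 smallest p-values in each direction. One was on chromosome 8 from 84500001 to 85000000, which was at percentile 83.0 and 98.9 in Th1 and 11.3 and 2.4 in Th2. Another was on chromosome 4 from 141500001 to 142000000, at 1.4 and 12.6 against 85.7 and 94.3. In 1000-kb bins 12 of 2409 passed, and as normal scores 13 of 4772 did.

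The bands of genes of the helper programmes off chromosome 10 were not called on the log2 scale. Percentile ranks of bands were taken over all 401 bands, which leaves the high bands of chromosome 10 little room to move. Among the bands lower on the log2 scale, the shift ran from -10.7 points (10qB5.3) to -0.25 (10qD2). A lack of rank calls there therefore cannot decide whether those bands differed. As percentile ranks 11 of 401 bands passed (2.74%, limma), 3 higher and 8 lower, all off chromosome 10. They include 1qH5 with Hlx, a homeobox gene of the Th1 list, at 0.037 and 0.029 in Th1 and 0.106 and 0.092 in Th2 (limma adjusted p = 0.024 in rank and 0.11 on the log2 scale). Also among them was 16qA1 with Socs1, an inhibitor of JAK-STAT signalling, at 0.028 and 0.018 against 0.081 and 0.053 (limma adjusted p = 0.042 and 0.20). Of the Th1 list, with Tbx21, Stat4, Il12rb2 and Eomes among its genes, 19 of 22 could be placed, in 15 bands. Of these 1 was lower, 10qB4 with Prf1, against 1.5% of all bands. The median change was -0.04, and -0.00 over all bands. Of the 12 bands of the Th2 list, which includes Il4, Gata3 and Maf, 1 was lower, 10qD3 with Stat6, and the median change was -0.03. Of 15 bands of JAK-STAT genes 2 were lower, 10qD3 with Stat2 and Stat6 and 10qC1 with Pias4, an inhibitor of STAT signalling, and the median was -0.04. Housekeeping genes lay in 9 bands, with 0 called by limma, 3 at an unadjusted p under 0.05 and a median of -0.00. Of the 14 landmark genes placed on other chromosomes, none was in a called band, and 7 of their 14 bands had an unadjusted p under 0.05. So did 8 of the 15 bands of the Th1 list, 5 of the 12 of the Th2 list, 6 of the 15 of the JAK-STAT list and 97 of all 401.

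Whole chromosomes other than 10 differed from -0.03 (chromosome 11) to 0.02 (X). Both Th1 arrays were below both Th2 arrays on 10 of 19 and above them on 1, the X. Chromosome 11 read 0.040 and 0.045 in Th1 and 0.085 and 0.060 in Th2, and the X 0.054 and 0.032 against 0.015 and 0.024. The exact permutation p was 0.333 for each of these 11.

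Light bands, which are rich in genes, carried more Ifng signal than the darkest bands in both cell types on chromosome 10. The difference of light minus dark was 0.17 and 0.13 in Th1 and 0.23 and 0.25 in Th2. On the percentile scale the order of the groups turned, with 18.1 and 13.4 points in Th1 against 13.1 and 11.7 in Th2. Off chromosome 10 the Th2 arrays had 0.038 and 0.025 and the Th1 arrays -0.004 and 0.010. In ranks that was 12.5 and 10.4 points in Th2 against -3.1 and 5.0 in Th1, so both Th1 arrays were below both Th2 arrays on both scales. The Th1 arrays differed in sign there, and their bins off chromosome 10 correlated at only 0.17. Each of these differences between Th1 and Th2 had the exact permutation p of 0.333. The Th1 minus Th2 difference in log2 ratio without Th1 replicate 2 was -0.06 on chromosome 10 and -0.04 off it.

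Counting the highest 5% of probes in each bin gave 53 calls (1.06%, limma, adjusted p under 0.05), 13 higher (0.259%) and 40 lower (0.797%) in Th1. Chromosome 10 held 51, which is 20.5% of its bins, 12 higher (4.82%) and 39 lower (15.7%). Of the 11 bins higher on the log2 scale 9 were among those 12. From 127500001 to 128000000 in 10qD3, 66.2% and 44.2% of the probes were among the highest in Th1 and 13% and 16.9% in Th2. From 92500001 in 10qC2 the shares were 57.6% and 45.9% against 15.3% and 12.9%. This count fell to 18 without Th1 replicate 2, with 14 higher and 4 lower, and to 0 without Th2 replicate 2.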

How the data were processed

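Ifng contacts were measured by 4C on arrays in 2 Th1 and 2 Th2 samples, fitted with 6 further Ifng arrays; groups came from titles. The authors deposited a log2 ratio for each probe, of 4C DNA (Cy5) over digested genomic DNA (Cy3) per the labels' protocols. The log base was taken as 2. Scanner software, normalization and genome build are not given in the sources used here. The sorted values of the Th2 arrays agree within 0.011 for 99.9% of probes and those of the Th1 arrays for 42.8%. The standard deviation over all probes was also near equal in the naive (0.592 and 0.592), Stat4 KO Th1 (0.516 and 0.517) and 3T3-L1 pairs (0.422 and 0.422). A spread within pairs reduced before deposit would lower the limma p-values and the SDs given here, which was not tested. Coordinates were taken as mm8, in which 0 of 21 chromosomes were shorter than their last probe, against 5 in mm9.

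The median of the probes off chromosome 10 was subtracted from each array, and no loess or quantile step followed. Means of the probes (median spacing 5037 bp) were taken over 500-kb bins holding 20 probes or more, and bins within 1 Mb of the bait bin were left out. Bins, percentile ranks, 401 bands (circlize 0.4.16) and shares of the highest 5% of probes were fitted in limma 3.58.1 under R 4.3.3 (lmFit, eBayes, two-sided, Benjamini-Hochberg at 0.05, all 10 Ifng arrays). Single values were tested by exact permutation. The distance trend was a lowess curve (fraction 0.3, statsmodels 0.14.6). Genes were placed in bands through a RefSeq table of GRCm38.p6, at least 1 Mb from a band's edge. Named regions are runs of called bins of 1 direction in which the groups do not overlap, up to 8 per direction (5 off chromosome 10) by mean change; a region's SE and adjusted p come from its best bin. Where under 5 bins passed, the 3 smallest p-values per direction are named. Members, lists and rules were chosen with earlier results of these data known.

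The fits were tested on simulated data. The rank fit on chromosome 10 recovered 0% of bins shifted by 20 percentile points and 76% of those shifted by 40. The number of arrays limits the precision. Alternatives were bin sizes, medians, normalizations, rank forms, blocks, the arrays in the fit and each replicate left out.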

Additional observations from a re-analysis of the deposited data

Results flagged for a closer look

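An array of the other bait carried a signal shared with an array of this comparison. Over probes off chromosomes 10 and 11, Ifng Th1 replicate 2 and Il4 Th2 replicate 2 had a Pearson correlation of 0.406. The other 79 pairs of an Ifng and an Il4 array ran from -0.043 to 0.348. The Spearman correlation of the pair was 0.576, below the 0.584 of Ifng naive replicate 2 with Il4 naive replicate 2. Il4 Th2 replicate 2 had a mean of 0.08 within 1 Mb of the Ifng bait, where the Il4 arrays ran from 0.02 to 0.13. The part of a mix-up or of shared handling in this value was not tested.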

How the results depend on the processing

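The 133 calls over bins became 70 with the median per bin (15 on chromosome 10), 86 with quantile normalization, 61 with scaling, and 54 within 1 serial series. The 106 on chromosome 10 became 49 with the distance trend removed, and the 27 off it 0 when tested alone; the share higher in Th1 was 9.0% of calls, 34.3% with the median, 25.6% with quantiles, 36.1% with scaling and 77.6% with the trend removed. Leaving out 1 array gave 76 to 112, and with the trend removed 28 to 50. The 70 rank calls became 40 in 200-kb bins and 21 with the Th1 and Th2 arrays alone, and 26 to 62 leaving out 1 array. Ranks off chromosome 10 gave 12 calls in 1000-kb bins and 13 as normal scores. Band ranks ran over all 401 bands, so the high bands of chromosome 10 had little room to move in them. The 6 band calls became 0 with scaling, 2 with quantiles, 11 as ranks (0 of them on chromosome 10) and 2 to 6 leaving out 1 array; the 53 calls by highest probes became 0 to 31.

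With the trend removed and 1 array left out, the block from 119000001 ran from 0.027 to 0.12 (0.072 with all), that from 122500001 from 0.036 to 0.23 (0.13) and that from 103500001 from 0.058 to 0.25 (0.15); without that step leaving out 1 array gave values down to -1.55, -0.84 and -0.82. The region from 92000001 was 0.10 in 1000-kb bins, and band 10qB4 0.0032 with scaling. By distance, scaling gave -0.86, -0.67, -0.35, -0.19, 0.00014, 0.0084 and 0.064 from nearest to farthest, and probe medians -2.52, -0.73, -0.13, -0.055, -0.0475, -0.02 and 0.025. Light minus dark bands gave 3.30 points in ranks on chromosome 10 and -10.5 off it, and -0.018 off it against all stained bands. The cause of these changes was not tested.

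Same-numbered Th1 and Th2 arrays deviated with a correlation of -0.23 on chromosome 10 and -0.14 off it. With 2 arrays per group, swapping the Th2 numbers only turns the sign, so these values cannot settle whether the numbers pair the arrays. The replicate number as a block gave 129 bins, 65 rank calls, 0 rank calls off chromosome 10 and 5 bands, and lost 10qB4. Crossing the Th2 numbers, an alternative chosen after seeing the data, gave 138 bins. With serial series as a block the contrast compared Th1 replicate 2 alone with the Th2 arrays, so it gives no separate check. The 2 arrays per group limit every call.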
